A study of Rattus norvegicus with 28 samples.

Results

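Gene expression in WT INS-1 cells after 16 h of forskolin (FSK) was compared directly with expression after 8 h of FSK. INS-1 cells come from a rat insulinoma and release insulin. The comparison used 4 of the 28 RNA-seq libraries of the series, 2 at 8 h and 2 at 16 h, chosen by genotype, agent and hours in their labels. All 4 cultures were WT, had been moved to serum-free medium and then received 10 µM FSK. The other WT groups used here were untreated cells (WT CON) and cells after 1 h of 10 µM FSK. WT cells after 8 h or 16 h of 10 nM exendin-4 (Ex-4, which activates the receptor for GLP-1) were used too. Cells with a Med14 S983A knock-in were used after 8 h or 16 h of 10 µM FSK and, for Nxph4, untreated. Each group had 2 libraries. The S983A cells were CRISPR-edited lines grown from sorted single cells, and the labels do not say which line gave which library. No untreated cells were labelled as held for 8 h or 16 h, so the second 8 h of FSK and the additional 8 h in serum-free medium cannot be told apart. The labels do not say that the 2 libraries of a group came from separate cultures, so p-values measure the spread between these libraries alone.

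Forskolin activates adenylyl cyclase directly, without a receptor, and raises cyclic AMP (cAMP). Cyclic AMP releases the catalytic subunits of protein kinase A (PKA), which phosphorylate CREB, a transcription factor bound at cAMP response elements (CREs). CREB target genes rise early, and many encode proteins that dampen the same pathway, among them phosphodiesterases, RGS proteins and salt-inducible kinases. In beta cells cAMP raises glucose-stimulated insulin secretion and sustains survival. The comparison asks which of the genes measured continued to change once the early response had passed.

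The 4 libraries held 48408881 to 52488807 fragments, within the range of 42551134 to 92635969 over all 28. Replicates of a group had a Pearson r of 0.998 to 0.999 on log2 values. The number of genes at or above 1 TPM (a read level scaled to exon length and to the library) was 9925 and 9879 at 8 h and 10143 and 10171 at 16 h. ERCC RNAs, synthetic RNAs spiked in by mass of total RNA, took 0.940% and 0.924% of fragments at 8 h and 0.736% and 0.691% at 16 h, so scaling on them shifts every gene upward at 16 h. The insulin transcripts stood at 1080 to 67834 TPM, as fits the label of insulinoma. Of 8 alpha cell markers, Gcg alone stood above 1 TPM at 8 h, and Irx2 and Pou3f4 were at 0. The summed level of these markers was 1226 to 1346 TPM at 8 h and 763 to 810 TPM at 16 h, nearly all of it Gcg. Slc38a5, the other alpha cell marker tested, was higher at 16 h (means of 0.751 and 1.76 TPM). The 6 delta, gamma and epsilon markers summed to at most 0.276 TPM and the 14 stromal, endothelial and immune markers to 1.02 to 2.12 TPM over the 4 libraries. The 7 acinar and ductal markers summed to 67.0 to 67.5 TPM at 8 h and 46.4 to 47.2 TPM at 16 h, mainly Bhlha15. The others had 8 h and 16 h means of 0.249 and 0.651 TPM for Cpa1, 0.273 and 0.639 TPM for Rbpjl, 0.446 and 0.734 TPM for Krt19 and 0.624 and 1.61 TPM for Sox9, while Ptf1a was at 0 and Cftr at most at 0.0195 TPM. In bulk RNA, fewer cells that express a gene and less RNA per cell cannot be told apart.

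Of 10275 genes tested, 1434 (14%) were higher and 372 (3.62%) were lower at 16 h than at 8 h of FSK. A gene was called where limma gave an adjusted p under 0.05 and the fold exceeded 1.5 on log2(TPM + 1). At an unadjusted p under 0.05, 7215 of the 10275 genes passed in either direction. By adjusted p without the fold minimum, 4750 were higher and 2220 lower. Counts at an unadjusted p for the lists below are to be set against this background. For all 1434 and all 372 genes the 2 libraries at 16 h lay wholly above or wholly below the 2 at 8 h. The genes were called on these same libraries, so this separation adds no support to the calls. The median log2 change was 0.79 among the genes called higher and -0.78 among those called lower, against 0.11 over all genes tested. The genes called higher had a median level of 8.84 TPM at 8 h, below the 22.7 TPM of all genes tested, and the genes called lower had a median of 36.7 TPM.

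**Figure D1:**
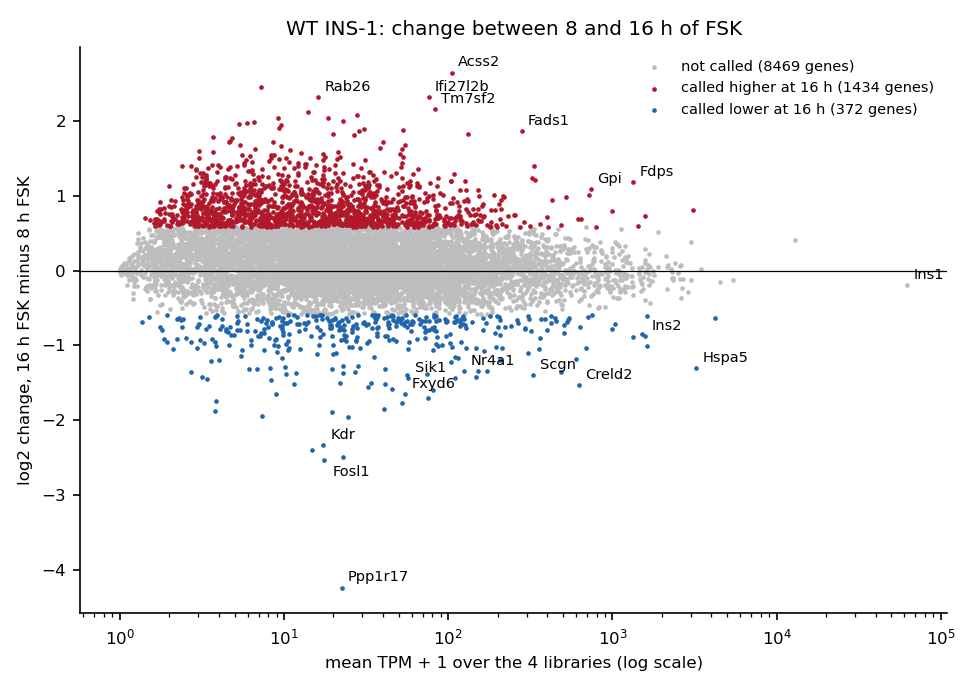
Each point is 1 of the 10275 genes tested. The horizontal axis is the mean TPM + 1 over the 4 libraries on a log scale and the vertical axis is the log2 change from 8 h to 16 h of FSK in WT. Red points are the 1434 genes called higher and blue points the 372 called lower. The deepest fall was that of Ppp1r17 and the highest rise that of Acss2, counting genes at a mean of 10 TPM or more.

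The balance of rises and falls depended on the scaling. With each library centred on its median, 881 genes were higher and 608 lower, and the median change over all genes was -0.04. With ERCC scaling, 3723 genes were higher and 117 lower, and that median was 0.45. All 1434 genes called higher in TPM remained so with ERCC scaling and 881 of them with centring. All 372 genes called lower remained so with centring and 117 of them with ERCC scaling, and none of these genes changed sign under either scaling. The study itself took its DESeq2 size factors from the ERCC RNAs. Here, DESeq2 with ERCC size factors on fragments recovered from the TPM gave 4190 genes higher and 158 lower. The values below are on the TPM scale, and most gene groups are also given under at least 1 other scaling.

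**Figure D2:**
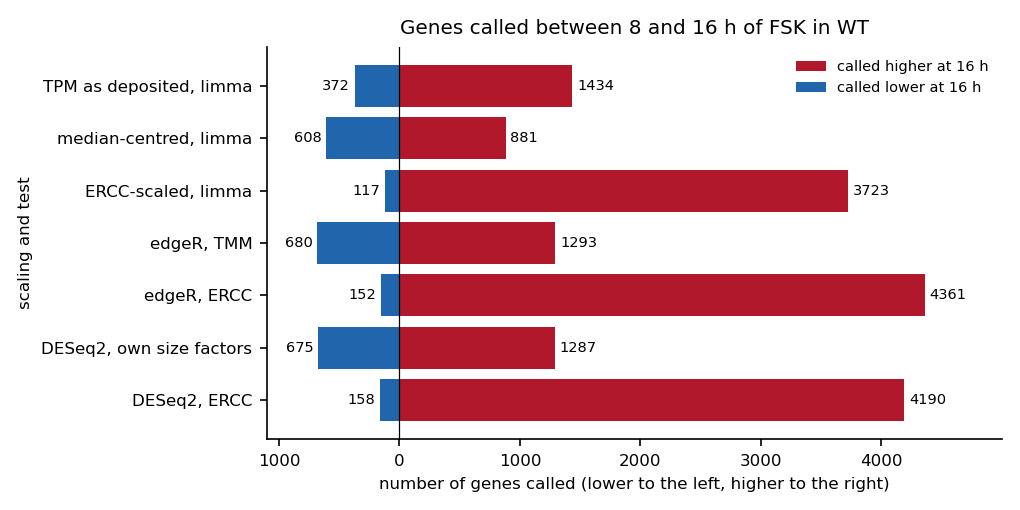
Bars give the number of genes called higher (red, to the right) and lower (blue, to the left) at 16 h against 8 h of FSK in WT, for 7 combinations of scaling and test. Scaling on the ERCC RNAs gave 3723 to 4361 genes higher and 117 to 158 lower, and the other scalings gave 881 to 1434 higher and 372 to 680 lower.

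Against untreated cells, 901 genes (8.77%) were higher and 3579 (34.8%) lower at 8 h of FSK, and 1062 (10.3%) were higher and 2478 (24.1%) lower at 16 h. The median change over all genes was -0.34 at 8 h and -0.20 at 16 h. Both of these comparisons share their FSK libraries with the direct comparison and share the CON libraries with each other, so only the levels of named genes are set side by side. A rise from 8 h to 16 h does not by itself place a gene above CON.

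The gene with the highest rise was Acss2, which encodes the cytosolic enzyme that makes acetyl-CoA from acetate (rn6, chr3:151032952-151075856). It measured 29.2 and 26.8 TPM at 8 h and 178 and 182 TPM at 16 h. Its mean was 29.6 TPM in WT CON and 27.5 TPM after 1 h, so its level first stood apart from that of untreated cells at 16 h. The log2 change from 8 h to 16 h was 2.64 ± 0.0453 (SE, n = 2 per group; limma adjusted p = 2.17e-23). Rab26, a small GTPase of secretory vesicles, measured 4.89 and 3.87 TPM at 8 h and 25.6 and 25.9 TPM at 16 h, beside a mean of 12.655 TPM in CON. Tm7sf2, a sterol reductase, went from 29.7 and 28.9 TPM to 134 and 134 TPM (log2 change 2.16 ± 0.0487). Nxph4, a secreted ligand of neurexins, went from 5.70 and 6.88 TPM to 27.97 and 29.5 TPM (log2 change 2.03 ± 0.0890). The other 8 of the 12 highest rises at a mean of 10 TPM or more were Ifi27l2b, Copz2, Stbd1, Trip10, Anxa6, Shisa4, Fads1 and Tspan17, with log2 changes of 1.86 to 2.31. Among these 12 genes the 16 h level was not always above that of CON. Tspan17, a tetraspanin, had a mean of 71.7 TPM in CON, and its 4 values were 11.9 and 10.9 TPM at 8 h and 42.6 and 45.4 TPM at 16 h.

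The deepest fall was that of Ppp1r17, an inhibitor of protein phosphatases (rn6, chr4:86275717-86292431). It measured 41.2 and 42.0 TPM at 8 h and 1.54 and 1.01 TPM at 16 h, and its mean was 14.5 TPM in CON and 23.7 TPM after 1 h of FSK. The log2 change was -4.23 ± 0.0893 (SE, n = 2 per group; limma adjusted p = 9.91e-22). It thus stood above untreated cells at 8 h and below them at 16 h. Fosl1, Actn2, Fosb and Kdr followed with log2 changes of -2.52 to -2.33. Kdr, the receptor of vascular endothelial growth factor and a delayed target named by the study, measured 26.8 and 28.4 TPM at 8 h and 4.52 and 4.84 TPM at 16 h, against 0.4045 TPM in CON. Actn2, an actin crosslinker, measured 39.6 and 35.6 TPM at 8 h and 6.30 and 5.46 TPM at 16 h. Fst, a secreted antagonist of activin, fell from 108 and 122 TPM to 33.9 and 34.98 TPM, which left it above its 0.3735 TPM in CON. Nrgn, Crabp1 and Fxyd6 were below CON at both times and lower at 16 h than at 8 h. Fxyd6, a regulator of the sodium pump, had a mean of 236 TPM in CON, 80.0 and 83.7 TPM at 8 h and 25.1 and 25.6 TPM at 16 h. Derl3, Cd83 and Camk4 completed the 12 falls, with log2 changes of -1.88, -1.85 and -1.60.

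**Figure D3:**
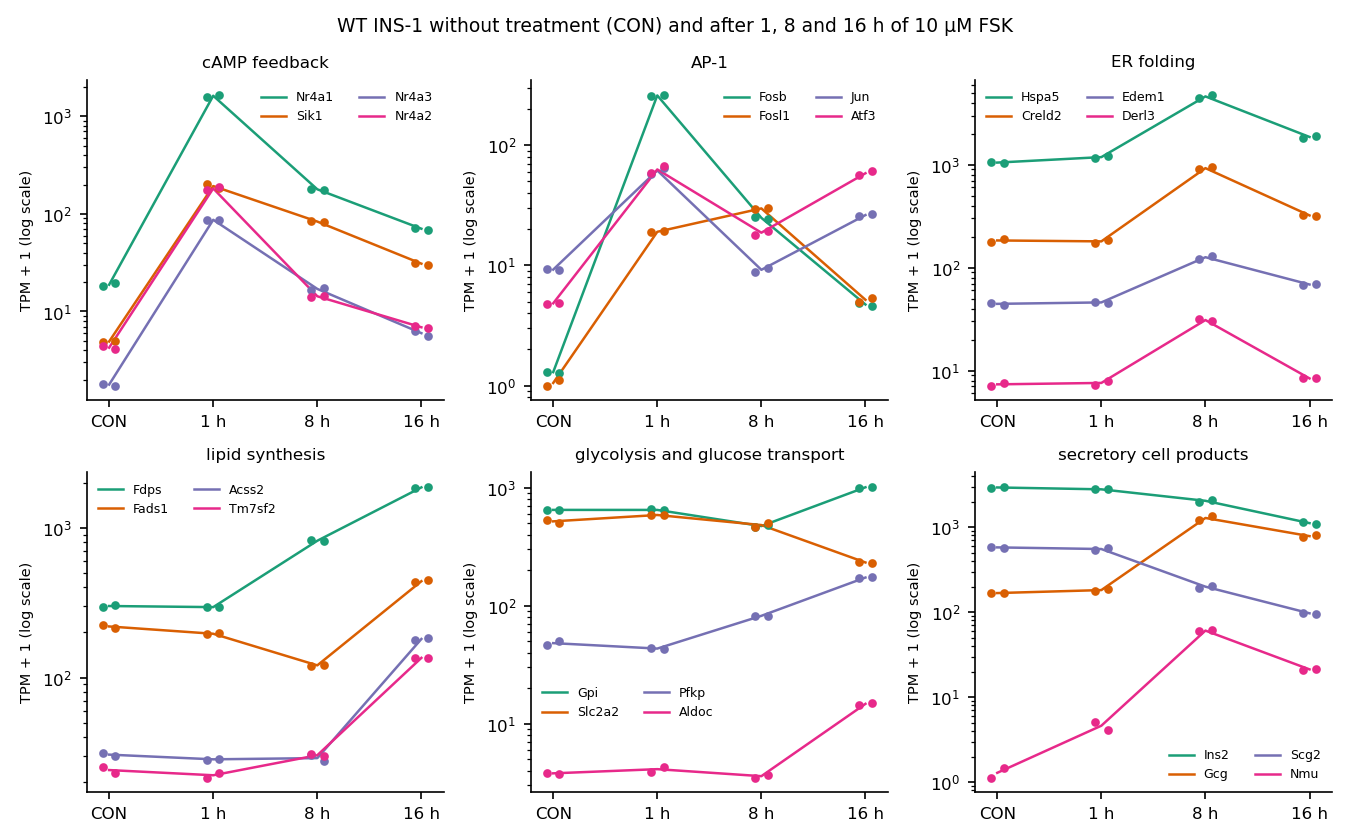
Each panel plots TPM + 1 on a log scale for 4 genes in WT cells without treatment (CON) and after 1, 8 and 16 h of 10 µM FSK. Points are single libraries, 2 per time, and lines join their means. Nr4a1 ran from 179 and 176 TPM at 8 h to 70.9 and 68.1 TPM at 16 h, Hspa5 from 4403 and 4794 TPM to 1828 and 1885 TPM, and Acss2 from 29.2 and 26.8 TPM to 178 and 182 TPM.

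Of 42 genes of cAMP feedback and the CREB family tested, 10 were lower and 0 higher at 16 h, and the median log2 change of the list was -0.30. That was 23.8% lower, beside 3.62% over all genes. By unadjusted p under 0.05, 25 of the 42 were lower and 10 higher, beside 7215 of 10275 genes in either direction. For this list edgeR and DESeq2 each called 15 lower and 0 higher. With ERCC scaling the balance turned, with 6 lower, 7 higher and a median of 0.05. The 10 genes included 3 nuclear receptors of the Nr4a family, which are early CREB targets, the kinase Sik1, which holds the CREB coactivators in the cytosol, and the CREB family repressor Crem. The study chose some members of this list, and of the AP-1 list that follows, from these same libraries, so their counts are not independent evidence of direction. Nr4a1 measured 179 and 176 TPM at 8 h and 70.9 and 68.1 TPM at 16 h, between 17.8 TPM in CON and 1625 TPM after 1 h (log2 change -1.34 ± 0.0831, limma adjusted p = 5.23e-13). Sik1 measured 82.9 and 82.0 TPM at 8 h and 30.6 and 29.2 TPM at 16 h, against 3.92 TPM in CON and 192 TPM after 1 h (log2 change -1.43 ± 0.0998). Both genes were still above untreated cells at 16 h. Nr4a3 and Nr4a2, the other members of the family, fell by 1.51 and 1.06 on the log2 scale. Crem, Rgs16 and Rgs2, which were not picked by the naming rule and were chosen after their values were seen, went from means of 172, 75.3 and 99.4 TPM to 83.4, 35.9 and 57.9 TPM. Pde4d and Pde10a, phosphodiesterases that break down cAMP and named here in the same way, went from 36.6 and 87.2 TPM to 22.4 and 54.2 TPM. The 2 phosphodiesterases and Rgs2 were no longer called with ERCC scaling.

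The promoters of Sik1 and Nr4a1 are shown because these are named CREB targets that fell together. They span 250 bases before to 50 bases after the start in RefSeq (build GRCr8), are written 5′ to 3′ along the gene, and carry TGACG, the core of a CRE, in capitals, or its reverse complement CGTCA. A match describes the letters and is no evidence of binding.
Sik1, chr20:9958597-9958896 (- strand): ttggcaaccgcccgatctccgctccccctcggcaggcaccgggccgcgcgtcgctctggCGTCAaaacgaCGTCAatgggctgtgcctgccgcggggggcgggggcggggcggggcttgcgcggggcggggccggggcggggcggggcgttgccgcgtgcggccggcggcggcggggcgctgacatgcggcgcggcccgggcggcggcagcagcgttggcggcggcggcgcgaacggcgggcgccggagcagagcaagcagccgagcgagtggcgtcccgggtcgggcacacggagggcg
Nr4a1, chr7:134259888-134260187 (+ strand): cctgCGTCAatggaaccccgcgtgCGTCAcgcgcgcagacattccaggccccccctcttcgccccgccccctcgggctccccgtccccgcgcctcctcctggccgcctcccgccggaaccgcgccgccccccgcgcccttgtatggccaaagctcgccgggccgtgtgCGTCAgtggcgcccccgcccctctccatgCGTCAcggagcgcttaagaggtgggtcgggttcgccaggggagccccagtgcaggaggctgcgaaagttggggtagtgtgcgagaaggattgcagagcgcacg
The Sik1 window held 2 such matches and the Nr4a1 window 4, and neither held the full palindrome TGACGTCA. Among other named falls, Fosl1 held 2, Nr4a2 held 1, and Fosb and Kdr held 0. Rrm1, named below, held 3. Scg2, also named below, held 2, both within 1 full TGACGTCA. TGACG on either strand was in 33.7% of the promoters of all tested genes and 36.2% of those called lower.

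Immediate early and AP-1 genes moved in both directions. Of 20 tested, 9 were lower and 3 higher, with a list median of -0.55, and with ERCC scaling 5 were lower and 5 higher at a median of -0.20. The shares in TPM were 45% lower and 15% higher, beside 3.62% and 14% over all genes. AP-1 is a dimer of Fos and Jun family proteins. Fosl1, a Fos family member, measured 28.7 and 28.8 TPM at 8 h and 3.99 and 4.35 TPM at 16 h, against 0.0520 TPM in CON. Fosb measured 24.2 and 23.5 TPM at 8 h and 3.87 and 3.58 TPM at 16 h, far from its 258 TPM after 1 h. Fos itself measured 28.6 and 26.9 TPM at 8 h and 16.7 and 16.2 TPM at 16 h (log2 change -0.72 ± 0.104), and this fall was not called with ERCC scaling. The 3 genes that rose were Atf3, Jun and Myc, of which Myc is named after its values were seen. Jun measured 7.86 and 8.50 TPM at 8 h, near its 8.22 TPM in CON, and 24.8 and 25.6 TPM at 16 h, after a peak of 60.5 TPM at 1 h. Atf3, a stress-induced repressor of the ATF/CREB family, measured 17.03 and 18.3 TPM at 8 h and 54.9 and 59.8 TPM at 16 h, near the 61.7 TPM of 1 h. Myc, a growth factor-responsive transcription factor, went from a mean of 13.3 to 37.2 TPM. These 3 rises were called under all 3 scalings.

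Among genes of the TGF-beta, WNT and ID families, 6 of 15 tested were lower and 1 higher, with a median of -0.22 in TPM and -0.08 with ERCC scaling. The shares in TPM were 40% lower and 6.67% higher, beside 3.62% and 14% over all genes. Id4 and Id3, inhibitors of helix-loop-helix factors, fell by 1.34 and 0.93 on the log2 scale, and Id4 measured 254 and 239 TPM at 8 h and 97.2 and 96.0 TPM at 16 h. Tgfb2, a secreted ligand, went from 30.0 and 34.0 TPM to 11.1 and 12.3 TPM, with a mean of 1.16 TPM in CON. Tgfb1 was the member that rose, from a mean of 5.69 to 9.04 TPM, was not called with centring, and is named after its value was seen. The fall of Id3 was not called with ERCC scaling.

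Genes of ER folding and the unfolded protein response (UPR) moved in both directions. The UPR raises chaperones and degradation factors when unfolded proteins build up in the endoplasmic reticulum. Of 39 tested, 9 were lower and 2 higher, with a median of -0.15, whereas with ERCC scaling 3 were lower and 8 higher with a median of 0.22. The shares in TPM were 23.1% lower and 5.13% higher, beside 3.62% and 14% over all genes. Hspa5, the main ER chaperone BiP, measured 4403 and 4794 TPM at 8 h and 1828 and 1885 TPM at 16 h (log2 change -1.31 ± 0.0458, limma adjusted p = 1.62e-17). Its CON mean was 1046 TPM, so it stood above untreated cells at both times. Creld2 measured 908 and 940 TPM at 8 h and 326 and 315 TPM at 16 h (log2 change -1.53 ± 0.0386). Derl3, a factor in the export of misfolded proteins from the ER, measured 30.7 and 29.2 TPM at 8 h and 7.39 and 7.39 TPM at 16 h, close to its 6.34 TPM in CON. Hspa5, Creld2 and Derl3 were lower under all 3 scalings. Edem1, a lectin of ER-associated degradation, measured 121 and 129 TPM at 8 h and 66.8 and 68.2 TPM at 16 h, and was not called with ERCC scaling (log2 change -0.51). Ssr4 and Edem2 were the 2 members that rose, with log2 changes of 0.61 and 0.59, were not called with centring, and are named after their values were seen.

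The promoter of Hspa5 is shown because it drives the most abundant gene of this group and holds 4 copies of the CCAAT box, CCAAT or its reverse complement ATTGG, in capitals (RefSeq, GRCr8).
Hspa5, chr3:38452766-38453065 (+ strand): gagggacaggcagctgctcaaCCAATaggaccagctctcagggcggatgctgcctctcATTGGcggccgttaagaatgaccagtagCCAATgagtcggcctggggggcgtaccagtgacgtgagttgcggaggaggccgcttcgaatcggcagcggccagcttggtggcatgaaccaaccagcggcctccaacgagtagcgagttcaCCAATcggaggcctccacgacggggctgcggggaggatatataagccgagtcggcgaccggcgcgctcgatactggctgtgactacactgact
The CCAAT box occurred in 37.9% of the promoters of all tested genes, so it is common beyond this gene.

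Insulin genes and secretory granule proteins shifted unevenly. Ins1, the more abundant insulin gene, measured 65627 and 67834 TPM at 8 h and 59777 and 56967 TPM at 16 h. Its log2 change was -0.19 ± 0.0547 (limma adjusted p = 0.00319), below the fold minimum, and 0.18 with ERCC scaling. Ins2 measured 1980 and 2112 TPM at 8 h and 1154 and 1080 TPM at 16 h, against 2938 TPM in CON (log2 change -0.87 ± 0.0567, limma adjusted p = 1.27e-12). The Ins2 fall was not called with ERCC scaling. Ins1 and Ins2 are close in sequence, so reads shared by them could have been split unevenly when the table was made. Of 15 genes for insulin and its processing, 5 were lower and 1 higher (Pam, not called with centring and named after its value was seen), with a median of -0.19 in TPM and 0.18 with ERCC scaling. Scg2, a granin of dense-core granules, measured 194 and 203 TPM at 8 h and 96.7 and 95.5 TPM at 16 h, and was lower under all 3 scalings. Pcsk1, which cleaves proinsulin, fell from 87.9 and 94.7 TPM to 50.7 and 53.5 TPM, and Ero1b, an ER oxidase, from 32.3 and 33.5 TPM to 19.4 and 20.1 TPM. Both of these falls and that of Chga, a granin named after its value was seen, were lost with ERCC scaling.

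Peptides other than insulin fell more often than they rose, with 7 of 15 tested lower and 1 higher. That was 46.7% lower and 6.67% higher, beside 3.62% and 14% over all genes. The list median was -0.40, and -0.03 with ERCC scaling, where 3 were lower and 2 higher. Nmu, neuromedin U, measured 58.6 and 60.9 TPM at 8 h and 19.8 and 20.7 TPM at 16 h, against 0.2875 TPM in CON. Tac1, the precursor of substance P, measured 208 and 236 TPM at 8 h and 107 and 103 TPM at 16 h, against 8.01 TPM in CON. Gcg, the proglucagon gene, measured 1225 and 1345 TPM at 8 h and 761 and 809 TPM at 16 h, against 167 TPM in CON (log2 change -0.71 ± 0.0682), which was not called with ERCC scaling. Sct, the secretin gene, fell from 21.02 and 21.6 TPM to 11.9 and 10.8 TPM, and this too was lost with ERCC scaling. Irx2, a regulator that marks alpha cells, was at 0 beside Gcg, as given above.

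Beta cell transcription factors gave 2 rises and 1 fall among 16 tested, 12.5% higher beside 14% over all genes and 6.25% lower beside 3.62%. The list median was -0.15, and 0.21 with ERCC scaling, and 4 of the 16 changes were positive in TPM. At an unadjusted p under 0.05, 9 were lower and 3 higher. Pdx1, Nkx2-2, Foxa2 and St18, named after their values were seen, were not called in TPM. Their means went from 198, 61.0, 139 and 230 TPM to 154, 43.2, 109 and 170 TPM. Nkx6-1, a regulator of beta cell identity, measured 21.2 and 19.996 TPM at 8 h and 35.1 and 35.8 TPM at 16 h, below its 52.2 TPM in CON. Tcf7l2, a WNT effector named after its value was seen, rose from a mean of 2.06 to 4.78 TPM. Mnx1, a homeodomain factor, fell from 31.7 and 32.3 TPM to 17.9 and 19.7 TPM, and was not called with ERCC scaling. Among 30 genes of granule exocytosis, 6 were higher and 2 lower at a median of 0.07, and centring turned this to 3 higher and 6 lower. In TPM that was 20% higher and 6.67% lower, beside 14% and 3.62% over all genes. Rph3al, an effector of Rab3 and Rab27 on granules, measured 23.1 and 22.9 TPM at 8 h and 52.8 and 49.7 TPM at 16 h, against 206 TPM in CON. Cadps, which primes dense-core granules, measured 3.42 and 3.24 TPM at 8 h and 7.58 and 8.01 TPM at 16 h, against 33.5 TPM in CON. Rab3b, a granule GTPase, moved the other way, from 31.5 and 32.8 TPM to 17.9 and 17.8 TPM, and Ptprn, a granule membrane protein, rose from 455 and 493 TPM to 770 and 754 TPM. The first of these was not called with ERCC scaling and the second not with centring. Of 28 channels and pumps, 4 were lower and 2 higher at a median of -0.03, and 0 lower and 7 higher with ERCC scaling. The TPM counts were 7.14% higher and 14.3% lower, beside the same 14% and 3.62%. Kcnq1, a potassium channel, rose from 4.71 and 4.61 TPM to 9.28 and 10.7 TPM. Trpm2, a calcium-permeable channel, rose from 24.9 and 23.4 TPM to 39.0 and 39.7 TPM, and was not called with centring. Cacna1d, an L-type calcium channel subunit, fell from 36.2 and 34.2 TPM to 18.4 and 18.9 TPM, and Atp2a2, the ER calcium pump, from 749 and 838 TPM to 467 and 470 TPM, both of them not called with ERCC scaling.

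Of 28 genes of cholesterol synthesis and uptake, 9 were higher and 1 lower, with a median of 0.35 in TPM, 0.20 with centring and 0.71 with ERCC scaling. The shares in TPM were 32.1% higher and 3.57% lower, beside 14% and 3.62% over all genes. This pathway turns acetyl-CoA into cholesterol through farnesyl diphosphate. Fdps, which makes farnesyl diphosphate, measured 821 and 814 TPM at 8 h and 1841 and 1874 TPM at 16 h, against 299 TPM in CON (log2 change 1.18 ± 0.0300, limma adjusted p = 3.94e-20). Ebp, a sterol isomerase, measured 38.3 and 39.1 TPM at 8 h and 92.6 and 84.0 TPM at 16 h, against 47.6 TPM in CON. Acat2, an acetoacetyl-CoA thiolase, measured 47.7 and 51.0 TPM at 8 h and 97.6 and 98.1 TPM at 16 h. Together with Tm7sf2, these 4 rises were called under all 3 scalings. Stard4, a sterol carrier named after its value was seen, was the member that fell, from a mean of 79.4 to 50.4 TPM, and only in TPM and with centring.

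The promoter of Ebp is shown because it was the cholesterol gene named here whose window held CACCCCAC, a core of the sterol response element, which is in capitals (RefSeq, GRCr8).
Ebp, chrX:16971212-16971511 (+ strand): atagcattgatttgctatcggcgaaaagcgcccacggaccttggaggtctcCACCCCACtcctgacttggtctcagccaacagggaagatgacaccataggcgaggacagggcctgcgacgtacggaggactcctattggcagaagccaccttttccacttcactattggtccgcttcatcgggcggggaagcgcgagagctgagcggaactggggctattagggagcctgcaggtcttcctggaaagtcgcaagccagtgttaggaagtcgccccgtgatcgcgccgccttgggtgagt
The windows of Fdps and Tm7sf2 did not hold these letters, and 2.39% of the promoters of all tested genes did.

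Fatty acid genes gave 7 rises and 0 falls among 27 tested, with a median of 0.30. That was 25.9% higher, beside 14% over all genes. With centring 6 were higher and with ERCC scaling 16, with 0 lower under either. By unadjusted p under 0.05, 21 were higher and 1 lower, and edgeR and DESeq2 each called 7 higher and 0 lower. Fads1 and Fads2, the desaturases that make polyunsaturated fatty acids, were the most abundant of those named. Fads1 measured 119 and 120 TPM at 8 h and 432 and 445 TPM at 16 h, against 218 TPM in CON, and Fads2 measured 182 and 185 TPM at 8 h and 476 and 491 TPM at 16 h, against 376 TPM in CON. Both stood below the CON mean at 8 h and above it at 16 h. Slc25a1, the mitochondrial citrate carrier, rose from 104 and 98.2 TPM to 182 and 178 TPM, against 170 and 174 TPM in CON. These rises were called under all 3 scalings.

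Glycolysis was the list with the highest median, 0.68 in TPM, 0.53 with centring and 1.04 with ERCC scaling. Of 19 genes tested, 11 were higher and 2 lower, 57.9% and 10.5% beside 14% and 3.62% over all genes. The other 8 of the 27 genes in the list had a mean under 1 TPM and were not tested. Aldoc, an aldolase, measured 2.46 and 2.70 TPM at 8 h and 13.4 and 13.98 TPM at 16 h. Gpi, glucose-6-phosphate isomerase, measured 462 and 481 TPM at 8 h and 997 and 1016 TPM at 16 h, against 647 TPM in CON (log2 change 1.09 ± 0.0452, limma adjusted p = 3.25e-16). Pfkp, a phosphofructokinase, rose from 80.5 and 81.4 TPM to 170 and 175 TPM. Pgk1, Slc2a1 and Aldoa, all named after their values were seen, went from means of 479, 72.4 and 2246 TPM to 963, 135 and 3924 TPM. The 2 falls were Slc2a2 and Pfkfb2. Slc2a2, the low-affinity glucose transporter GLUT2 of beta cells, measured 460 and 501 TPM at 8 h and 234 and 228 TPM at 16 h (log2 change -1.05 ± 0.0503), while Slc2a1, the high-affinity transporter GLUT1, rose. The fall of Slc2a2 held under all 3 scalings and that of Pfkfb2, a bifunctional regulator of phosphofructokinase named after its value was seen, was lost with ERCC scaling. Of 10 genes tested from a list built around Txnip and the glucose-responsive factor ChREBP, 3 were higher and 1 lower. That was 30% and 10%, beside the same 14% and 3.62%. The 3 rises were those of Pdk1, which inhibits pyruvate dehydrogenase, Arrdc3, an arrestin-like protein, and Pklr, a pyruvate kinase. Pdk1 went from 18.6 and 18.7 TPM to 39.6 and 38.6 TPM, against 51.1 and 46.9 TPM in CON. Arrdc3 went from 6.14 and 5.35 TPM to 11.2 and 12.3 TPM, against 12.9 and 12.05 TPM in CON. Pklr went from 33.8 and 30.2 TPM to 51.4 and 52.3 TPM, below its 225 and 220 TPM in CON, and was not called with centring. Mlxipl, which encodes ChREBP itself, fell from 98.5 and 76.9 TPM to 54.6 and 58.3 TPM, and the call was lost with ERCC scaling (log2 change -0.25) and without either of WT 8 h replicate 1 (-0.44) or WT 16 h replicate 1 (-0.57).

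Few mitochondrial genes were called. Of 68 subunits of the respiratory chain and ATP synthase, limma called 0 in either direction at a median of 0.09. At an unadjusted p under 0.05, 34 were higher and 6 lower, beside 7215 of 10275 genes in either direction. For these subunits edgeR and DESeq2 each called 0 higher and 1 lower. With ERCC scaling 13 of them were higher. Atp5mc1, the most abundant subunit tested, measured 2910 and 2944 TPM at 8 h and 2353 and 2179 TPM at 16 h, a log2 change of -0.37 that was 0.00 with ERCC scaling. Of 22 genes of the TCA cycle, Idh2 and Suclg2 were higher and 0 lower by limma, edgeR or DESeq2, with 3 lower at an unadjusted p under 0.05. The 2 rises were 9.09% of the list, beside 14% over all genes. Idh2, a mitochondrial isocitrate dehydrogenase, went from 114 and 112 TPM to 209 and 202 TPM, against 318 TPM in CON. Suclg2, a succinyl-CoA ligase subunit, went from 35.3 and 33.7 TPM to 57.0 and 57.4 TPM, against 103 and 96.7 TPM in CON. The rise of Suclg2 was not called with centring. Among 22 antioxidant and NRF2-linked genes 4 were higher and 2 lower, 18.2% and 9.09% beside 14% and 3.62% over all genes. Pgd, 6-phosphogluconate dehydrogenase, rose from 37.5 and 36.4 TPM to 73.7 and 73.8 TPM. Srxn1, a sulfiredoxin, and Gstm1, a glutathione transferase, fell by 0.83 and 0.80 on the log2 scale, and both calls were lost with ERCC scaling.

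Lysosome and autophagy genes gave 12 rises and 0 falls among 36 tested, 33.3% higher beside 14% over all genes, at a median of 0.29. Of the 36, 27 were higher and 3 lower at an unadjusted p under 0.05, edgeR and DESeq2 each called 6 higher and 0 lower, and 5 rises remained with centring. With ERCC scaling 22 were higher and 0 lower. Npc2, which carries cholesterol out of lysosomes, measured 44.8 and 47.7 TPM at 8 h and 94.6 and 97.6 TPM at 16 h, against 49.8 and 49.2 TPM in CON. Mcoln1, a lysosomal calcium channel, went from 39.7 and 39.1 TPM to 80.1 and 77.6 TPM, below its 112 and 104 TPM in CON. Ctsl, a protease, went from 139 and 149 TPM to 271 and 281 TPM, against 191 and 193 TPM in CON. Bnip3l, a receptor for the removal of mitochondria, rose from 17.9 and 18.1 TPM to 34.6 and 36.9 TPM, near its 33.5 and 34.0 TPM in CON.

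Interferon-stimulated genes gave 7 rises and 0 falls among 24 tested, 29.2% higher beside 14% over all genes, at a median of 0.40. After centring 4 were higher and with ERCC scaling 16, with 0 lower under either. At an unadjusted p under 0.05, 18 were higher and 2 lower, and edgeR and DESeq2 each called 5 higher and 0 lower. Ifi27l2b measured 23.98 and 24.9 TPM at 8 h and 124 and 127 TPM at 16 h, against 6.46 TPM in CON (log2 change 2.31 ± 0.141, limma adjusted p = 3.92e-13). The genes of peptide loading on MHC class I followed at lower levels. Psmb8, an immunoproteasome subunit, measured 7.06 and 5.68 TPM at 8 h and 18.2 and 19.3 TPM at 16 h, and Tap1, the peptide transporter, 15.3 and 16.2 TPM at 8 h and 30.5 and 31.1 TPM at 16 h. Psmb9, a further immunoproteasome subunit, rose from 13.04 and 12.5 TPM to 21.03 and 20.9 TPM, which was not called with centring and left it below its 30.2 TPM in CON.

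ATF4 targets and tRNA synthetases gave 5 rises and 0 falls among 33 tested, at a median of 0.32. That is 15.2% higher, near the 14% over all genes. After centring 3 were higher and with ERCC scaling 19, with 0 lower under either. At an unadjusted p under 0.05, 24 were higher and 4 lower, and edgeR and DESeq2 each called 4 higher and 0 lower. ATF4 is the transcription factor of the integrated stress response. Trib3, a pseudokinase, measured 33.4 and 38.1 TPM at 8 h and 90.9 and 95.9 TPM at 16 h, against 1.95 TPM in CON. Chac1, which degrades glutathione, measured 29.1 and 31.6 TPM at 8 h and 72.0 and 73.7 TPM at 16 h, against 2.85 TPM in CON. Shmt2 and Psph, enzymes of serine and glycine metabolism, rose from 97.2 and 95.6 TPM to 203 and 207 TPM and from 86.0 and 89.2 TPM to 141 and 150 TPM. The fifth was Mars1, a tRNA synthetase named after its value was seen, which like Psph was not called with centring.

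Of 47 replication genes 8 were lower and 0 higher at a median of -0.27, and of 49 mitotic genes 8 were lower and 0 higher at a median of -0.24. At an unadjusted p under 0.05, 34 replication genes were lower and 8 higher, and 35 mitotic genes were lower and 8 higher. For the same lists edgeR and DESeq2 each called 14 and 11 lower and 0 higher. With ERCC scaling both medians turned positive, 0.07 and 0.13, with 1 replication gene lower and 4 higher and 0 mitotic genes lower and 3 higher. Cdc6, which loads the replicative helicase, measured 12.8 and 13.9 TPM at 8 h and 6.05 and 5.88 TPM at 16 h, and was the replication gene that stayed lower with ERCC scaling. Aurkb, a mitotic kinase, measured 110 and 104 TPM at 8 h and 60.0 and 61.0 TPM at 16 h, against 150 TPM in CON. Rrm1, a subunit of ribonucleotide reductase, went from 271 and 283 TPM to 162 and 165 TPM, and Pola1, E2f7, Cdca3, Ttk and Foxm1 had log2 changes of -0.78 to -0.70. Ccnd1, cyclin D1, which drives entry into S phase, measured 57.1 and 57.6 TPM at 8 h and 23.3 and 21.8 TPM at 16 h, against 0.430 TPM in CON (log2 change -1.31 ± 0.0829), and was lower under all 3 scalings. Of 24 cell cycle inhibitors, D cyclins and p53 targets tested, 5 were higher and 3 lower at a median of -0.02, and 11 of the 24 changes were positive. That was 20.8% higher and 12.5% lower, beside 14% and 3.62% over all genes. After centring 4 rose and 6 fell, and on ERCC RNAs 8 rose and 1 fell. Of the 24, Ccng1, Bbc3 and Phlda3, known as targets of p53, were higher under all 3 scalings. Ccng1 measured 191 and 191 TPM at 8 h and 437 and 468 TPM at 16 h (log2 change 1.24 ± 0.0452), and Bbc3 and Phlda3 had log2 changes of 1.02 and 0.89.

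Clock genes moved in opposite directions, with 3 of 17 tested higher and 4 lower. That was 17.6% higher and 23.5% lower, beside 14% and 3.62% over all genes. Nr1d1, the repressor REV-ERB alpha, measured 1.07 and 1.41 TPM at 8 h and 10.8 and 11.8 TPM at 16 h, against 18.3 TPM in CON (log2 change 2.45 ± 0.0843, limma adjusted p = 1.17e-17). Nr1d2 and Npas2, named after their values were seen, rose by 1.18 and 1.34 on the log2 scale. Per2, Cry1 and Cry2, which repress CLOCK and BMAL1, fell. Per2 measured 13.8 and 11.4 TPM at 8 h and 3.28 and 3.37 TPM at 16 h, and Cry2 measured 216 and 218 TPM at 8 h and 86.1 and 83.3 TPM at 16 h. These 6 changes were called under all 3 scalings, and the fall of Per1, a period gene also named after its value was seen, was lost with ERCC scaling (means of 45.5 and 26.4 TPM).

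**Figure D4:**
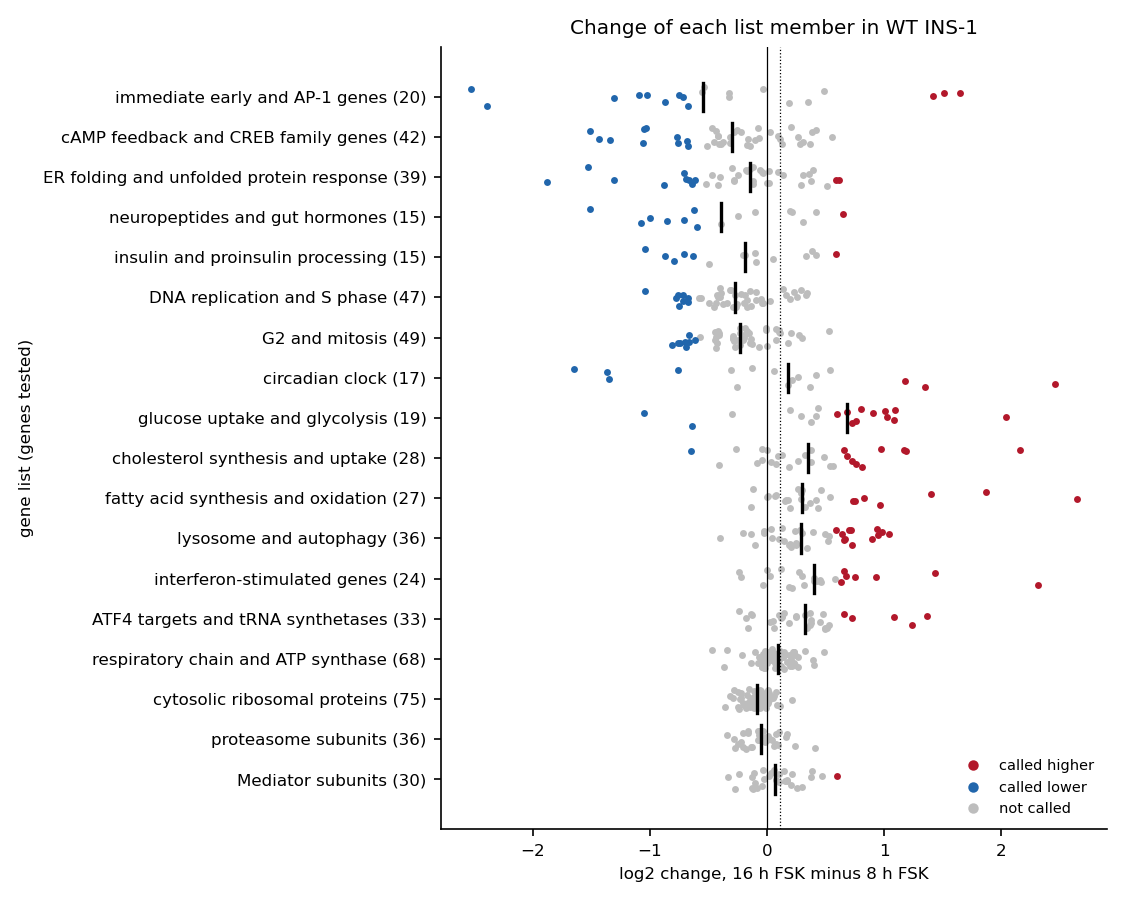
Each point is 1 tested member of a gene list, placed by its log2 change from 8 h to 16 h of FSK in WT on the horizontal axis. Red points were called higher, blue points lower and grey points neither, black bars mark list medians, and the dotted line marks the median of 0.11 over all genes. Glycolysis had its median at 0.68 and immediate early genes at -0.55, while cytosolic ribosomal proteins lay close to 0. The medians of cAMP feedback, ER folding, insulin processing, replication, mitotic, ribosomal and proteasome genes turned positive with ERCC scaling.

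Several large complexes gave no calls. Of 75 cytosolic ribosomal proteins, 36 proteasome subunits, 18 heat shock genes, 40 genes of ribosome biogenesis and 24 of chromatin and RNA polymerase II, limma called 0 in either direction, with medians of -0.08, -0.06, 0.09, -0.02 and -0.02. At an unadjusted p under 0.05 these lists held 33, 15, 4, 9 and 8 lower and 1, 7, 9, 9 and 5 higher, and edgeR and DESeq2 each called 1 gene of ribosome biogenesis lower and no other. With ERCC scaling these lists held 1, 2, 4, 1 and 3 genes called higher and 0 lower. The most abundant members tested, Rplp0, Psmb4, Hsp90ab1, Npm1 and Polr2g, had log2 changes of -0.13, 0.00, 0.10, -0.37 and -0.09, and those of Rplp0, Npm1 and Polr2g were positive with ERCC scaling while those of Psmb4 and Hsp90ab1 were negative with centring. Of 67 mitochondrial ribosomal proteins, Mrps23 and Mrpl55 were higher, 2.99% beside 14% over all genes. Mrps23 went from 51.9 and 47.9 TPM to 85.7 and 86.4 TPM, against 96.0 and 103 TPM in CON. Mrpl55 went from 53.6 and 53.6 TPM to 88.4 and 86.0 TPM, against 87.1 and 87.2 TPM in CON. The rise of Mrpl55 was not called with centring. Of 4 digestive enzymes tested, Ctrb1, chymotrypsinogen, rose from 5.75 and 6.62 TPM to 14.1 and 12.2 TPM. Bhlha15, an acinar and secretory cell regulator, went from 65.8 and 65.6 TPM to 43.4 and 43.0 TPM and was not called with ERCC scaling. Of 30 Mediator subunits, Med12 alone was called, 3.33% beside 14% higher over all genes. It went from 6.37 and 5.61 TPM to 9.01 and 10.1 TPM, below its 16.7 and 14.8 TPM in CON. The call was lost with centring (log2 change 0.45) and without WT 8 h replicate 2 or WT 16 h replicate 2 (0.52 and 0.52). Med14, the subunit changed in the S983A lines, measured 25.5 and 25.9 TPM at 8 h and 21.5 and 21.7 TPM at 16 h (log2 change -0.24, and 0.12 with ERCC scaling).

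The study names 6 genes grouped here, the delayed genes Kdr, Osbpl6 and Plat, with Ins1, Irs2 and the immediate early gene Fos. Of these 6, 2 were lower and 0 higher by limma, edgeR and DESeq2. That was 33.3% lower by limma, beside 3.62% over all genes. At an unadjusted p under 0.05, 4 were lower and 0 higher. Plat, tissue plasminogen activator, measured 63.7 and 71.8 TPM at 8 h and 63.4 and 68.1 TPM at 16 h, against 1.02 TPM in CON (log2 change -0.04 ± 0.0915, limma adjusted p = 0.715). The 8 h and 16 h libraries overlapped for Plat. Osbpl6, an oxysterol-binding protein, measured 16.3 and 15.8 TPM at 8 h and 13.9 and 15.6 TPM at 16 h (log2 change -0.11 ± 0.0907, limma adjusted p = 0.271). Irs2, the insulin receptor substrate and a CREB target, measured 166 and 171 TPM at 8 h and 123 and 125 TPM at 16 h, a log2 change of -0.44 that was below the fold minimum in TPM and past it with centring (-0.59). The 2 falls were those of Kdr, a delayed gene, and Fos, an immediate early gene, both given above. The signs for Plat and Osbpl6 were positive with ERCC scaling.

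The same interval was compared with that in Med14 S983A cells, which shares no library with the WT comparison. In S983A cells 2212 genes (21.5%) were higher and 658 (6.40%) lower at 16 h than at 8 h of FSK. Of the 1434 genes called higher in WT, 1083 (75.5% of them and 49.0% of the S983A rises) were also higher in S983A and 0 were lower. Of the 372 called lower in WT, 256 (68.8% of them and 38.9% of the S983A falls) were also lower in S983A and 2 were higher. Across the 10275 genes the WT and S983A changes had a Pearson r of 0.775 and a Spearman rho of 0.769, given as a description across genes, which are not independent replicates. The change itself differed between WT and S983A by the interaction in limma for 377 genes (3.67%) that were more positive in WT and 557 (5.42%) that were more negative.

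Trib3 and Chac1 rose in WT, and their log2 changes in S983A were -0.46 and -0.53. Their interactions were 1.83 ± 0.133 and 1.77 ± 0.123 (SE, limma adjusted p = 1.22e-10 and 6.65e-11). In S983A, Trib3 had means of 199 ± 6.10 TPM (SD, n = 2) at 8 h and 144 ± 3.09 TPM at 16 h, so the WT values of 90.9 and 95.9 TPM at 16 h remained under those of S983A at either time. Nxph4 measured 21.9 ± 1.40 TPM at 8 h and 21.9 ± 2.13 TPM at 16 h in S983A, and its interaction was 2.04 ± 0.126. Untreated S983A cells already had a mean of 21.8 TPM for Nxph4, against 4.59 TPM in WT CON. Enpp2, which encodes the secreted lysophospholipase autotaxin, fell in both genotypes and further in S983A, from 94.4 ± 1.22 to 8.77 ± 0.360 TPM beside 99.9 and 113 TPM to 39.2 and 41.0 TPM in WT, an interaction of 1.90 ± 0.0716. Ppp1r17 had the most negative interaction named, -3.03 ± 0.126, which was -2.01 with a pseudocount of 0.1 TPM and -1.42 by edgeR, on an S983A level of only 1.61 ± 0.216 TPM at 8 h and 0.130 ± 0.0771 TPM at 16 h. Plppr5, a phospholipid phosphatase-related membrane protein, rose in both and more in S983A, where it went from 5.17 ± 0.511 to 36.0 ± 1.84 TPM beside 1.37 and 1.31 TPM to 3.83 and 4.23 TPM in WT. Dnph1, a nucleotide hydrolase, measured 28.8 and 27.9 TPM at 8 h and 25.4 and 20.5 TPM at 16 h in WT and rose from 20.7 ± 0.659 to 54.3 ± 5.16 TPM in S983A. Zfp692, a zinc finger protein, measured 17.5 and 13.6 TPM at 8 h and 14.5 and 16.8 TPM at 16 h in WT, with overlapping libraries, and rose from 7.28 ± 0.340 to 23.01 ± 0.348 TPM in S983A. By list, 11 of 28 cholesterol genes had a more positive change in WT and 1 a more negative one, 10 of 33 ATF4 genes had a more positive one and 0 a more negative one, and 17 of 75 cytosolic ribosomal proteins had a more negative one and 0 a more positive one, against 3.67% more positive and 5.42% more negative over all genes. For the ATF4 targets the median interaction was 0.44, and for the ribosomal proteins -0.49.

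**Figure D5:**
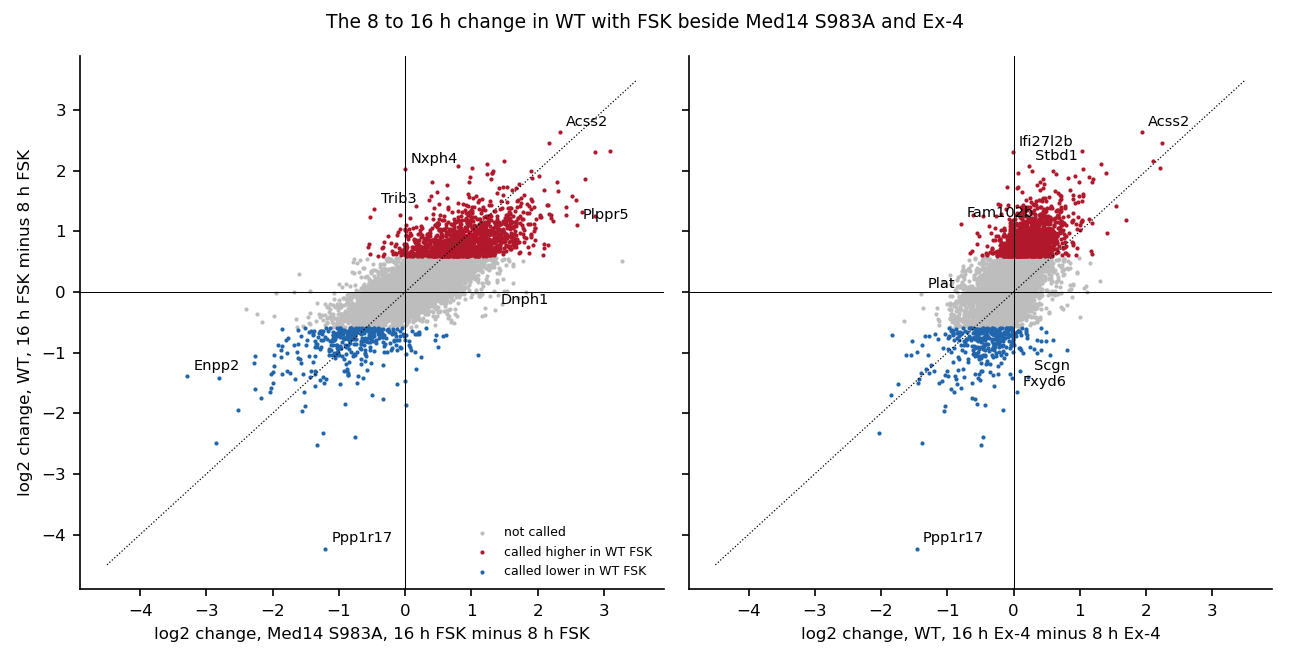
The vertical axis of both panels is the log2 change from 8 h to 16 h of FSK in WT, and the horizontal axis is the log2 change over the same hours in Med14 S983A with FSK (left) or in WT with Ex-4 (right). Each point is 1 of 10275 genes, colored by its call in WT with FSK, and the dotted line marks equal change. Points follow the line more closely on the left (r = 0.775) than on the right (r = 0.605), where horizontal changes were smaller.

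With Ex-4, which acts through the GLP-1 receptor, WT cells changed less between 8 h and 16 h, with 214 genes (2.08%) higher and 359 (3.49%) lower. The Ex-4 libraries are not shared with the FSK comparison, and the agents were given at different doses. Of the 1434 FSK rises, 152 (10.6% of them and 71.0% of the Ex-4 rises) were also higher with Ex-4 and 4 were lower, and of the 372 FSK falls, 101 (27.2% of them and 28.1% of the Ex-4 falls) were also lower and 2 were higher. The Pearson r across genes was 0.605 and the Spearman rho 0.579. By the interaction, 1194 genes (11.6%) had a more positive change with FSK and 186 (1.81%) a more negative one, and this balance depended on the scaling, with 424 and 449 after centring.

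The highest positive interactions with Ex-4 were those of Ifi27l2b (2.33 ± 0.199), Fam102b (1.92 ± 0.0938), Stbd1 (1.85 ± 0.116) and Lgals9 (1.67 ± 0.0886). Ifi27l2b stayed at 10.8 ± 0.681 TPM at 8 h and 10.7 ± 0.711 TPM at 16 h of Ex-4. Lgals9, the lectin galectin-9, measured 18.8 and 16.8 TPM at 8 h and 59.2 and 61.9 TPM at 16 h of FSK, and 16.7 ± 1.48 and 17.3 ± 0.270 TPM with Ex-4. Stbd1, a glycogen-binding protein, measured 8.66 and 10.7 TPM at 8 h and 42.2 and 45.8 TPM at 16 h of FSK, and 7.15 ± 0.921 and 8.54 ± 0.230 TPM with Ex-4. Fam102b rose with FSK, from 6.57 and 6.40 TPM to 14.7 and 16.0 TPM, and fell with Ex-4, from 18.5 ± 0.836 to 10.2 ± 0.462 TPM. The most negative interactions were those of Ppp1r17 (-2.77 ± 0.126), Fxyd6 (-1.70 ± 0.0602), Scgn (-1.62 ± 0.0691) and Scg2 (-1.59 ± 0.0524). Scgn, the calcium sensor secretagogin, measured 472 and 482 TPM at 8 h and 188 and 173 TPM at 16 h of FSK against 1352 TPM in CON, and 1025 ± 0.482 and 1194 ± 59.8 TPM with Ex-4. Fxyd6 stood at 151 ± 3.54 and 156 ± 3.86 TPM with Ex-4, beside 81.8 and 25.3 TPM on average at 8 h and 16 h of FSK. By list, 47 of 49 mitotic genes were lower at 16 h than at 8 h of Ex-4, and 23 of the 49 had a more positive change with FSK and 0 a more negative one. Cholesterol genes went the other way, with 20 of 28 higher at 16 h of Ex-4, and 11 with a more negative change with FSK and 0 with a more positive one. Plat had a log2 change of -1.39 with Ex-4 and an interaction of 1.35.

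RefSeq promoters were matched for 8422 of the 10275 genes, 1160 of those called higher and 293 of those called lower. The core TGACG, on either strand, was in 28.5% of the promoters of genes called higher, 36.2% of those called lower and 33.7% of all. The full CRE TGACGTCA, which contains that core, was in 1.55%, 3.41% and 3.41% in the same order, the E-box CACGTG in 8.53%, 9.56% and 9.76%, and the CCAAT box in 36.2%, 43.3% and 37.9%. The sterol element core CACCCCAC was in 3.02% of the promoters of genes called higher, 0.341% of those called lower and 2.39% of all. These shares are descriptions without a test.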

How the data were processed

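Bulk RNA-seq of INS-1 cells was taken from the processed tables. Per the labels, the libraries were directional, and the submitters' notes name rn6, STAR 2.5.3a, HOMER 4.11.1 and DESeq2 1.24.0. The authors computed TPM over RefSeq exons with HOMER, and the deposited TPM were used without further scaling. The deposited count table holds the authors' counts of the 92 ERCC RNAs alone. The transcript with the highest mean TPM over the 28 libraries was kept for each symbol, which left 17455 symbols, of which 10275 with a mean of at least 1 TPM were tested. Fragments were recovered from TPM, length and ERCC counts. Of 138979 values under 1000 reads, 100% came out whole within 0.05 reads plus an allowance for the rounding of the TPM (22.97% by chance).

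Log2(TPM + 1) values of all 28 libraries were fitted with limma 3.58.1 in R 4.3.3 with a mean for each of 14 groups (14 residual degrees of freedom). Tests were two-sided with Benjamini-Hochberg adjustment. Interactions were differences of 2 time changes. The test was checked on simulated data. Alternatives were a pseudocount of 0.1 TPM, no filter, a filter at 5 TPM, centring, ERCC scaling, fewer libraries in the fit, the replicate block, leaving out each library, no fold minimum, and count tests on the recovered fragments by edgeR 4.0.16 and by DESeq2 1.42.0. ERCC RNA was added per mass of total RNA, so ERCC scaling reads levels per mass of RNA rather than per cell.

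Named genes were the 12 highest rises and 12 deepest falls with a mean of at least 10 TPM, up to 4 called members of each list with a mean of at least 5 TPM or else its most abundant member, 8 genes of interest (Kdr, Osbpl6, Plat, Ins1, Ins2, Fos, Irs2 and Med14), and the 4 most positive and 4 most negative genes of each interaction. The gene lists and the named genes were chosen with earlier results of these data known, so no list count is independent support. Coordinates of genes are rn6 as deposited, and promoters are GRCr8 from RefSeq. Results for some named genes and markers are left out of the text.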

Additional observations from a re-analysis of the deposited data

Results flagged for a closer look

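The 24 genes with the highest rises and deepest falls and the genes named for each interaction are listed here where the 8 h to 16 h change with FSK in WT differed from another time change by the interaction in limma (adjusted p under 0.05 and a difference above 1.5-fold). Values are differences of log2 changes, each over 2 libraries a group.

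Of the 24 genes chosen by size, 15 differed between WT and Med14 S983A. With the genes named for that interaction, the change was more positive in WT for Nxph4 (2.04), Enpp2 (1.90), Trib3 (1.83), Chac1 (1.77), Stbd1 (1.28), Anxa6 (0.92), Copz2 (0.89), Tm7sf2 (0.67) and Camk4 (0.66). It was more negative in WT for Ppp1r17 (-3.03), Dnph1 (-1.65), Fosb (-1.64), Zfp692 (-1.52), Plppr5 (-1.48), Crabp1 (-1.44), Fst (-1.21), Fosl1 (-1.20), Kdr (-1.09), Cd83 (-0.94), Tspan17 (-0.85) and Rab26 (-0.76). For Kdr the S983A means were 1.96 and 0.252 TPM, near the pseudocount of 1 TPM, and the difference was 0.01 with a pseudocount of 0.1 TPM and 0.47 by edgeR, neither of them called, so no difference is read for Kdr. For Ppp1r17 it was -2.01 and -1.42 in the same order.

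Of the same 24 genes, 21 differed between FSK and Ex-4 in WT. With the genes named for that interaction, the change was more positive with FSK for Ifi27l2b (2.33), Fam102b (1.92), Stbd1 (1.85), Lgals9 (1.67), Tspan17 (1.42), Trip10 (1.41), Rab26 (1.29), Shisa4 (1.05), Nxph4 (0.99), Copz2 (0.80), Anxa6 (0.75), Acss2 (0.70) and Fads1 (0.67). It was more negative with FSK for Ppp1r17 (-2.77), Fosl1 (-2.03), Fosb (-1.94), Fxyd6 (-1.70), Scgn (-1.62), Scg2 (-1.59), Cd83 (-1.31), Crabp1 (-1.19), Actn2 (-1.11), Nrgn (-0.90), Derl3 (-0.85) and Camk4 (-0.65). For Fosl1 the Ex-4 means were 0.560 and 0.106 TPM, and the difference was -1.08 with a pseudocount of 0.1 TPM and -0.60 by edgeR (adjusted p = 0.481), so it depends on the pseudocount and the test.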

How the results depend on the processing

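For 16 h against 8 h in WT, the counts higher and lower were 881 and 608 with centring, 3723 and 117 with ERCC scaling, 4361 and 152 by edgeR and 4190 and 158 by DESeq2 with ERCC scaling, 680 and 675 lower by edgeR and DESeq2 without it (1293 and 1287 higher), and 4750 and 2220 with no fold minimum. For the interaction with S983A they were 483 and 732 with a pseudocount of 0.1 TPM, 575 higher by edgeR, and 2001 and 2863 with no fold minimum. For the interaction with Ex-4 they were 424 and 449 with centring, 2449 and 107 with ERCC scaling, 816 and 461 by edgeR, 765 and 461 by DESeq2, 3077 and 118 by edgeR and 3121 and 111 by DESeq2 with ERCC scaling, and 4816 and 898 with no fold minimum. Each scaling by construction moves all genes of a library together, and no other cause was tested. Leaving out each library in turn gave 1356 to 1557 genes higher and 366 to 391 lower for 16 h against 8 h in WT, 343 to 421 and 506 to 672 for the interaction with S983A, and 1072 to 1370 and 172 to 217 for that with Ex-4.

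The labels give the groups the same replicate numbers, but replicate 1 of the 8 h and 16 h FSK groups did not deviate together (r = -0.018), nor did those of S983A (0.024) or Ex-4 (0.045). The replicate block gave 1434 higher and 373 lower and changed no call of a named gene.

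Of 124 named genes, 23 falls were no longer called with ERCC scaling and 8 rises with centring. Signs turned, all for genes not called, as follows. By limma with ERCC scaling, edgeR with ERCC library sizes and DESeq2 with ERCC size factors in that order, the log2 changes were 0.24, 0.25 and 0.23 for Rplp0, 0.28, 0.29 and 0.28 for Polr2g, 0.24, 0.26 and 0.25 for Osbpl6, 0.33, 0.34 and 0.32 for Plat, 0.18, 0.19 and 0.17 for Ins1, 0.12, 0.13 and 0.11 for Med14 and 0.0573, 0.0768 and 0.0584 for Dnph1. By the first 2 of these they were 0.0012 and 0.0111 for Atp5mc1 and 0.0056 and 0.0160 for Npm1. With centring, edgeR and DESeq2 they were -0.15, -0.14 and -0.14 for Psmb4, -0.0517, -0.0404 and -0.0402 for Hsp90ab1 and -0.13, -0.12 and -0.13 for Zfp692. Leaving out each of the 4 libraries in turn, they ran from -0.0075 to 0.0079 for Psmb4 (-0.0009 without WT 8 h replicate 2), from -0.1252 to 0.0450 for Plat (0.0111 without WT 16 h replicate 1) and from -0.1525 to 0.1860 for Zfp692 (-0.0800 without WT 16 h replicate 2). Of 21 differences from S983A given by gene, that of Kdr turned from -1.09 to 0.0091 with a pseudocount of 0.1 TPM, 0.4662 and 0.4449 by edgeR without and with ERCC library sizes, and 0.4617 and 0.4301 by DESeq2 likewise. Of 25 differences from Ex-4, those of Acss2, Copz2, Anxa6 and Fads1 were no longer called with centring, edgeR or DESeq2, that of Camk4 not with ERCC scaling, and that of Fosl1 not by edgeR or DESeq2. With 2 libraries a group, the spread within each group rests on 1 difference, and the shared estimate assumes that all groups vary alike.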
